A study of Mus musculus with 3 samples.

Results

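The 10 genes described here are mt-Nd1, mt-Nd2, mt-Nd4, mt-Nd5, mt-Nd6, mt-Cytb, mt-Co1, mt-Co2, mt-Co3 and mt-Atp6, which lie on the mitochondrial chromosome and encode subunits of the respiratory chain and of ATP synthase. They were chosen by symbol from the 22698 genes listed in RNA-seq profiles of mouse melan-a cells, with their levels already known, so their levels are given as a description with no test. The mitochondrial chromosome held 13 protein-coding genes in the files, and the other 3 (mt-Atp8, mt-Nd3 and mt-Nd4l) are described beside the members. Melan-a is an immortalized line of pigmented mouse melanocytes. All 3 libraries came from untreated cells of C57BL/6J background that the labels describe as derived from Ink4a-ARF-/- mice, and all were grown in RPMI 1640 with 10% fetal bovine serum, the phorbol ester TPA at 200 nM and cholera toxin at 200 pM. The libraries are labelled replicates 1, 3 and 4 and were each sequenced in 3 lanes, and there was 1 group, so no condition was compared with another.

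Mitochondrial DNA of mammals is transcribed from both strands into long RNAs that span many genes, and the messenger RNAs are released mainly by excision of the transfer RNAs that lie between them. Genes read from the same strand therefore start from a shared precursor, and differences between their messenger RNAs arise after or during its synthesis. The proteins are core, membrane-embedded subunits of complexes I, III, IV and V, which pump protons across the inner mitochondrial membrane or use the gradient to make ATP, and each of these complexes also contains many subunits encoded in the nucleus. The mitochondrial genome also has copies in the nuclear genome, left by past insertions of mitochondrial DNA.

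The values are FPKM (fragments per kilobase of gene, relative to library size), which the authors scaled between libraries, so levels of different genes are compared per length throughout. From low values of short genes, which fall on whole numbers of reads, the libraries of replicates 1, 3 and 4 were estimated at 54000000, 47000000 and 66300000 reads after scaling. For a gene of 1 kb, 3 reads were then worth 0.0452 to 0.0638 FPKM. Of 8 melanocyte markers, 7 averaged at least 1 FPKM, led by Tyrp1, an enzyme of melanin synthesis, at 3144 FPKM, while Kit, a receptor of the melanocyte lineage, averaged 0.68 FPKM. The summed melanocyte markers ranged from 5711 to 6558 FPKM. The summed markers of fibroblasts (1.52 to 1.85 FPKM), immune cells (0.76 to 1.6), keratinocytes (0.36 to 0.7) and endothelial cells (0.01 to 0.03) were low, and 2 of 3 immune markers and 1 of 4 keratinocyte markers were at 0 in every replicate. Cdkn2a, the gene of the Ink4a-ARF locus, was listed at 19.24, 16.49 and 24.32 FPKM in replicates 1, 3 and 4, and a value per gene does not show which of its exons the reads came from.

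A stretch of the mitochondrial genome that holds several members was found almost letter for letter on chromosome 1 in NCBIM37 (mm9), the build to which the reads were aligned. The copy lies at chr1:24618374-24623023 on the minus strand and matches chrM:6394-11042, which is 4649 of 16299 mitochondrial bases. It consists of 3 exact segments of 3067, 367 and 1222 bases. The edges are shown because they mark which members have their sequence in both places, with the shared bases in capitals and the bases outside the match in lower case.
left edge, chrM:6364-6423, plus strand: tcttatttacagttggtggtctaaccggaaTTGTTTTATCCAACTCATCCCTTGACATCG
left edge, chr1:24622994-24623053, minus strand: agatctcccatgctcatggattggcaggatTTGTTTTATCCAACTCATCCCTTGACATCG
right edge, chrM:11013-11072, plus strand: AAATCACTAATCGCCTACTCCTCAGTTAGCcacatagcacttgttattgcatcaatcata
right edge, chr1:24618344-24618403, minus strand: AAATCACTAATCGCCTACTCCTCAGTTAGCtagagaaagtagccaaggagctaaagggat
The left edge falls inside mt-Co1 and the right edge inside mt-Nd4, so mt-Co2, mt-Atp6 and mt-Co3 lie wholly within the copied stretch.

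Between the edges, 1 substitution and 1 difference in length separate the copies. The substitution is T9461C (mitochondrial base first, position counted from 1 on the mitochondrial chromosome, chromosome 1 base last) and lies at position 3 of mt-Nd3. It is shown with the differing base in capitals.
chrM:9446-9476, plus strand: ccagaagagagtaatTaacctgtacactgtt
chr1:24619941-24619971, minus strand: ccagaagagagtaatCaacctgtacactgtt
The difference in length is a run of adenines, in capitals, of 8 bases in the mitochondrial genome and 9 on chromosome 1.
chrM:9809-9840, plus strand: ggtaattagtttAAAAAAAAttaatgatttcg
chr1:24619576-24619608, minus strand: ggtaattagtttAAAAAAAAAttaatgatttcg
Neither difference lies in a member, so a read that lies within mt-Co2, mt-Atp6 or mt-Co3 matches both places equally well.

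Among the 5 members of complex I, the entry point of electrons from NADH, 4 had FPKM values among the highest in the files and 1 did not. mt-Nd1 (chrM:2751-3707) was at 8192, 7920 and 7843 FPKM in replicates 1, 3 and 4, in that order here and in the triplets that follow (7985 ± 183, SD, n = 3), rank 3 of all genes. mt-Nd2 (chrM:3914-4951) was at 4649, 4418 and 4674 FPKM (4580 ± 141, SD, n = 3), rank 4. Both varied little between libraries, and the lowest mt-Nd1 value was well above the highest mt-Nd2 value. mt-Nd5 (chrM:11742-13565), the longest member, was at 3772, 3289 and 3970 FPKM (3677 ± 350, SD, n = 3), rank 5. mt-Nd4 (chrM:10167-11544) was at 2504, 2255 and 2718 FPKM (2492 ± 232, SD, n = 3), rank 12. mt-Nd5 and mt-Nd4 were both lowest in replicate 3 and highest in replicate 4. mt-Nd6 (chrM:13552-14070), the only member on the minus strand, was at 35.76, 35.82 and 28.01 FPKM (33.2 ± 4.49, SD, n = 3), rank 2062, and stood apart from the other complex I members in every replicate.

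mt-Cytb (chrM:14145-15288) encodes cytochrome b, the mitochondrially encoded subunit of complex III. It was at 8948, 7927 and 9423 FPKM (8766 ± 764, SD, n = 3). This was the second highest mean FPKM of the files, though its order against mt-Nd1 is not settled by the replicates. Like mt-Nd5 and mt-Nd4, it was lowest in replicate 3 and highest in replicate 4.

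The 3 members of complex IV, cytochrome c oxidase, encode its catalytic core, and their listed levels differed widely. mt-Co1 (chrM:5328-6872), which encodes the subunit that binds the heme groups where oxygen is reduced, was at 11593, 11282 and 11333 FPKM (11403 ± 167, SD, n = 3), the highest value of any gene. mt-Co2 (chrM:7013-7696), which encodes the subunit that takes electrons from cytochrome c, was at 103.62, 99.13 and 89.68 FPKM (97.5 ± 7.12, SD, n = 3), rank 600. mt-Co3 (chrM:8607-9390) was at 61.24, 66.44 and 48.11 FPKM (58.6 ± 9.45, SD, n = 3), rank 1141. As listed, mt-Co1 exceeded mt-Co2 117-fold (log2 ratio 6.87 ± 0.10, SD, n = 3). mt-Co2 and mt-Co3 lie wholly in the stretch copied on chromosome 1, so their levels are assigned to sequence found in both places.

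mt-Atp6 (chrM:7927-8607) encodes a subunit of the proton channel of ATP synthase, complex V. It was at 181.04, 166.33 and 149.25 FPKM (166 ± 15.9, SD, n = 3), rank 310. The genes of the mitochondrial chromosome that are not members were also low. mt-Atp8, the other mitochondrially encoded subunit of ATP synthase, was at 82.51, 61.17 and 76.3 FPKM. mt-Nd4l was at 28.43, 26.53 and 26.84 FPKM, and mt-Nd3 at 24.48, 23.07 and 22.91, and both encode small subunits of complex I.

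**Figure D1:**
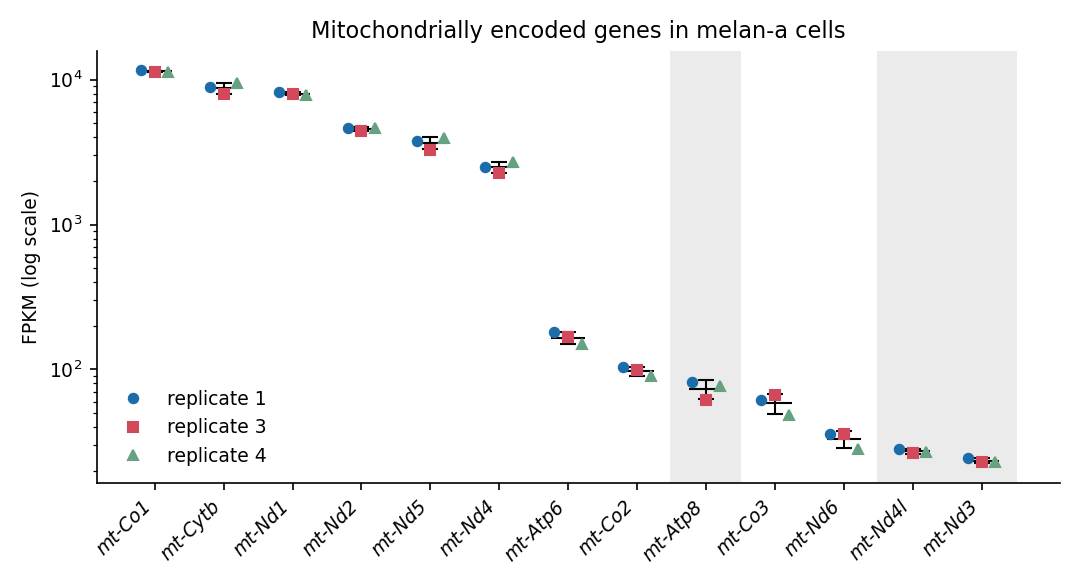
FPKM (log axis) of the 13 mitochondrially encoded genes in replicates 1, 3 and 4, with the mean (long dash) and SD of 3 replicates (capped bars) and the 3 genes that are not members on grey. The upper 6 members lie between 2255 and 11593 FPKM and the other 4 between 28.01 and 181.04 FPKM, with no member between the sets.

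Together the 10 members summed to 40041, 37458 and 40275 FPKM (39258 ± 1563, SD, n = 3). This was 10.6%, 9.49% and 11.2% of all FPKM in the 3 libraries (10.4% ± 0.872, SD, n = 3). Most of it came from few genes. mt-Co1 held 29.1% ± 0.995 of the members' sum, mt-Cytb 22.3% ± 1.12 and mt-Nd1 20.4% ± 0.839 (SD, n = 3). At the other end, mt-Co2, mt-Co3 and mt-Atp6 together held 0.0851% ± 0.00573 (SD, n = 3) of all FPKM. Of the 10 genes with the highest mean FPKM 5 were members, and mt-Nd4 was the only further member among the 100 highest.

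Members were compared within each library, and a pair was said to differ beyond its spread when the ratio lay on the same side of 1 in every replicate and the mean log2 ratio exceeded 2 SDs. By this measure 44 of 45 pairs differed, and the exception was mt-Cytb and mt-Nd1. The same count was not made for pairs of other genes, so it describes these members only. Pairs with mt-Co2, mt-Atp6 or mt-Co3 also rest on sequence shared with chromosome 1. Those with mt-Nd4 or mt-Co1 do so in part, as 63.6% and 31.0% of these genes lie in the copy. mt-Cytb was higher than mt-Nd1 in all 3 replicates, but by log2 ratios of 0.13, 0.0014 and 0.26 (mean 1.10-fold), so the order of these neighbours is not settled by the replicates. In order of level, mt-Co1 exceeded mt-Cytb 1.30-fold and mt-Nd1 exceeded mt-Nd2 1.74-fold. mt-Nd2 exceeded mt-Nd5 1.25-fold and mt-Nd5 exceeded mt-Nd4 1.48-fold. The order of mt-Nd5 and mt-Nd4 reversed when levels were related to sequence found only once in the genome, as described below. The next step, from mt-Nd4 to mt-Atp6, was 15.1-fold (log2 ratio 3.91 ± 0.24, SD, n = 3) and was the widest between neighbours. Below it the steps were again small, with mt-Atp6 1.70-fold above mt-Co2, mt-Co2 1.68-fold above mt-Co3 and mt-Co3 1.76-fold above mt-Nd6. The extremes, mt-Co1 and mt-Nd6, differed 346-fold (log2 ratio 8.43 ± 0.20, SD, n = 3).

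Along the mitochondrial genome, levels did not fall steadily with distance from mt-Nd1. mt-Nd1 and mt-Nd2 were followed by mt-Co1, which was higher than both, and mt-Cytb, the most distant gene, exceeded mt-Nd5 2.39-fold (log2 ratio 1.25 ± 0.01, SD, n = 3). The 6 genes from mt-Co2 to mt-Nd4l, which are consecutive, were all below 200 FPKM, and their neighbours on both sides, mt-Co1 and mt-Nd4, were above 2000. mt-Nd4l and mt-Nd4 share 7 bases and differed 91.2-fold (log2 ratio 6.51 ± 0.13, SD, n = 3). These 6 genes are the genes that lie wholly in the stretch copied on chromosome 1.

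**Figure D2:**
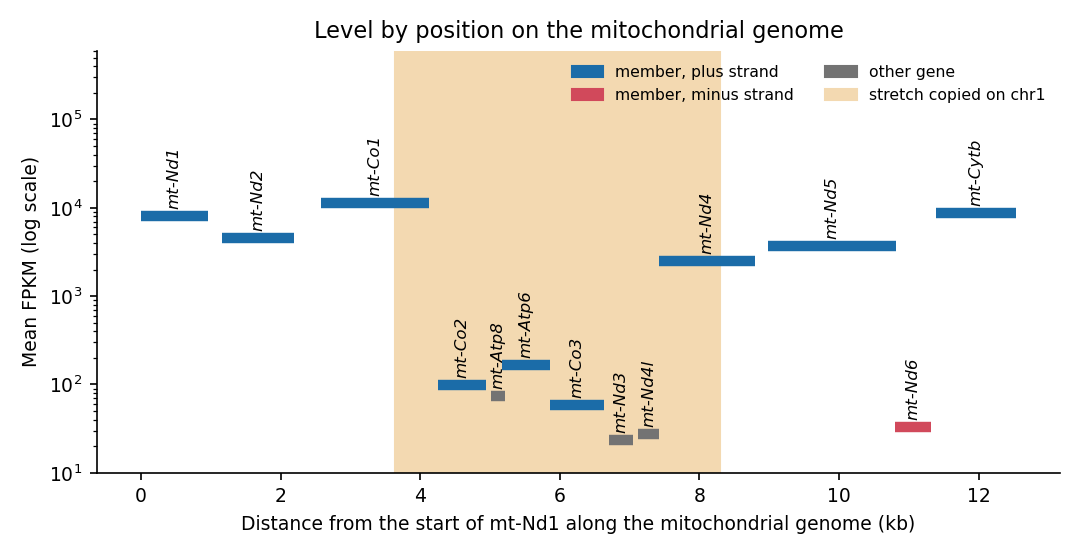
Mean FPKM of 3 replicates (log axis) for each mitochondrial gene at its position, as distance in kb from the start of mt-Nd1, with plus-strand members in blue, mt-Nd6 on the minus strand in red, other genes in grey and the stretch copied on chromosome 1 shaded. The 6 genes wholly inside the shaded stretch lie below 200 FPKM, and mt-Nd6, outside it, is also low at 33.2 FPKM.

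To give the overlap of level and copy a value, every window of 90 bases in each gene was searched for an exact second occurrence in the genome. The read length is not given in the sources used here, and 75 and 50 bases were tried as well. In mt-Co2, mt-Atp6 and mt-Co3 none of the 595, 592 and 695 windows of 90 bases was unique. In mt-Nd4 38.9% were unique, in mt-Co1 66.6%, and in mt-Nd2, mt-Nd5, mt-Nd1, mt-Cytb and mt-Nd6 95.8% to 100%. The share of each gene that lies in the copy was 63.6% for mt-Nd4 and 31.0% for mt-Co1. The other 19 exact matches of at least 90 bases in the nuclear genome were at most 242 bases long. Over the 12 plus-strand genes, Spearman's rho between mean FPKM and the share of unique windows was 0.774, a description over genes that share libraries and neighbouring positions. How reads that align equally well to 2 places were counted is not given in the sources used here, and the part of the copy in these levels was not tested.

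When FPKM was divided by the share of unique windows of 90 bases, the order of the upper members changed at a single gene. Such a value measures the level only if reads matching 2 places were left out of the counts, which is not known here. mt-Nd4 came to 6430, 5790 and 6978 FPKM per unique length (6399 ± 595, SD, n = 3) and was then above mt-Nd2 (4782 ± 147) and mt-Nd5 (3690 ± 351) in every replicate. mt-Co1 came to 17133 ± 251 (SD, n = 3) and remained the highest, 1.96-fold above mt-Cytb. mt-Nd1 exceeded mt-Nd4 1.25-fold on this scale, beyond the spread with windows of 90 and 75 bases but not with windows of 50. No such value can be formed for mt-Co2, mt-Atp6 and mt-Co3, whose unique length is 0, so for them the FPKM in the files is a level assigned to sequence found in both places.

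**Figure D3:**
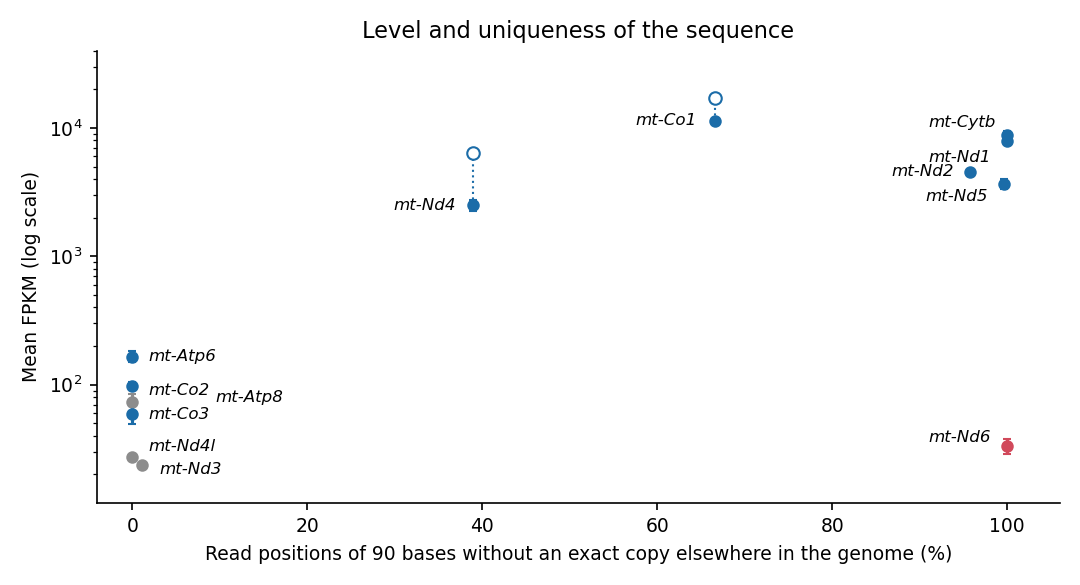
Mean FPKM (log axis, bars SD of 3 replicates) against the percentage of 90-base windows of the gene without an exact copy elsewhere in the genome, for plus-strand members (blue), mt-Nd6 (red) and the other mitochondrial genes (grey). Open circles give the level per unique length for mt-Nd4 (6399) and mt-Co1 (17133). Genes at or near 0% lie below 200 FPKM, and mt-Nd6 is low at 100%.

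The copy on chromosome 1 carries annotated genes that the files list as nuclear genes. Gm10925 (chr1:24620814-24621627, minus strand) matches chrM:7790-8603, which covers most of mt-Atp8 and nearly all of mt-Atp6, in all of its 772 exon bases. It was at 140.22, 146.39 and 116.77 FPKM (134 ± 15.6, SD, n = 3). Its ratio to mt-Atp6 was 0.812 ± 0.0588 (SD, n = 3) and its ratio to mt-Atp8 1.87 ± 0.457 (1.53 to 2.39 over the replicates), so its level lay between those of the mitochondrial genes whose sequence it holds. Gm10222 (chr1:24619243-24619539, minus strand) has the sequence of mt-Nd4l in all 297 bases and was at 40.74, 38.93 and 32.13 FPKM, 1.37 ± 0.147 times mt-Nd4l (SD, n = 3). With identical sequences, reads of these genes and of their mitochondrial counterparts cannot be told apart.

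mt-Nd6 was low without lying in the copy. All of its 430 windows of 90 bases were unique, and it rested on an estimated 1002, 874 and 964 reads. The 95% Poisson intervals, which cover counting error only, ran from 33.6 to 38.0, 33.5 to 38.3 and 26.3 to 29.8 FPKM, so the lower value of replicate 4 exceeded counting error. Against the median of the other 9 members, mt-Nd6 was 111-fold lower (log2 ratio -6.80 ± 0.32, SD, n = 3). Against the 4 plus-strand members outside the copy it was 183-fold lower (log2 ratio -7.52 ± 0.21, SD, n = 3). The libraries were made with an mRNA kit that keeps strand, but the strand setting of the counting is not given in the sources used here. How fully the kit captured the RNA of mt-Nd6 relative to the other members was not tested.

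mt-Nd6 also differs from the others in base composition, as the gene on the opposite strand. Its excess of G over C was 64.97% of all G and C, while the 9 plus-strand members had an excess of C, with values from -55.3% in mt-Nd2 to -19.2% in mt-Co1. mt-Nd5 and mt-Nd6 run towards each other and share their last 14 bases, shown in capitals on the plus strand because reads there can be assigned only by strand.
chrM:13542-13575, plus strand: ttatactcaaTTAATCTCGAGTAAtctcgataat
On the plus strand, mt-Atp8 and mt-Atp6 overlap by 43 bases, and mt-Atp6 and mt-Co3 by 1 base.

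Among the members, 3 end without a complete stop codon in the genome, which in mitochondria is completed when the poly(A) tail is added. They are shown by their last bases, 5′ to 3′ in the direction of the gene, with the remaining base of the stop codon in capitals and, for contrast, the complete stop of mt-Co1.
mt-Co3: tttattgatgaggatctT
mt-Nd4: ttacaggcctgacaataT
mt-Cytb: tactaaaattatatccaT
mt-Co1: tatgtaaaagtaaaaTAA
The 3 genes with an incomplete stop were at 58.6, 2492 and 8766 FPKM and so fell at the lower, middle and upper parts of the members' range.

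Between replicates, the members did not all move in a common direction. Of the 10 members, 8 were higher in replicate 1 than in replicate 3, beside 48.3% of 9998 nuclear genes with at least 1 FPKM in every replicate. In replicate 1 against replicate 4, 6 of 10 were higher, beside 50.7% of the nuclear genes, and in replicate 3 against replicate 4, 5 of 10, beside 51.3%. In that last comparison mt-Co2, mt-Atp6, mt-Co3 and mt-Nd6 were higher in replicate 3 (log2 ratios 0.14, 0.16, 0.47 and 0.35). mt-Nd1 and mt-Co1 were nearly equal (0.01 and -0.0065), and the remaining members were lower (-0.27 to -0.08). The split did not follow the copied stretch as a whole. Of the other genes inside it, mt-Atp8 was lower in replicate 3 (log2 ratio -0.32), mt-Nd4l and mt-Nd3 were nearly equal (-0.02 and 0.01), and the annotated chromosome 1 genes Gm10925 and Gm10222 were higher (0.33 and 0.28).

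Nuclear genes differed between the libraries with their GC content. Spearman's rho over 9993 genes between GC content and the log2 ratio was 0.782 for replicate 3 over 4, 0.703 for 1 over 4 and -0.722 for 1 over 3. The members have low GC content, 34.1% to 39.9%, beside a nuclear median of 50.5%. Nuclear genes within 1 percentage point of a member's GC content had median log2 ratios of replicate 3 over 4 from -0.80 to -0.58. All 10 members lay above these medians, by 0.37 (mt-Cytb) to 1.15 (mt-Nd6). For replicate 1 over 4 the medians ran from -0.38 to -0.26 and all 10 members lay above them, by 0.19 to 0.73. For replicate 1 over 3 the medians ran from 0.31 to 0.42, and 8 members shared this direction, but all 10 lay below the medians, by log2 differences of -0.46 to -0.16. In each pair of libraries the members thus stood on the same side of nuclear genes of like GC content. The 3 pairs are formed from the same 3 libraries, so they are not independent of each other. Few nuclear genes share the lowest GC contents, and the comparison rests on 6 genes for mt-Nd6 and 36 for mt-Nd2 and mt-Nd4. The part of GC content in the members' differences was not tested.

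**Figure D4:**
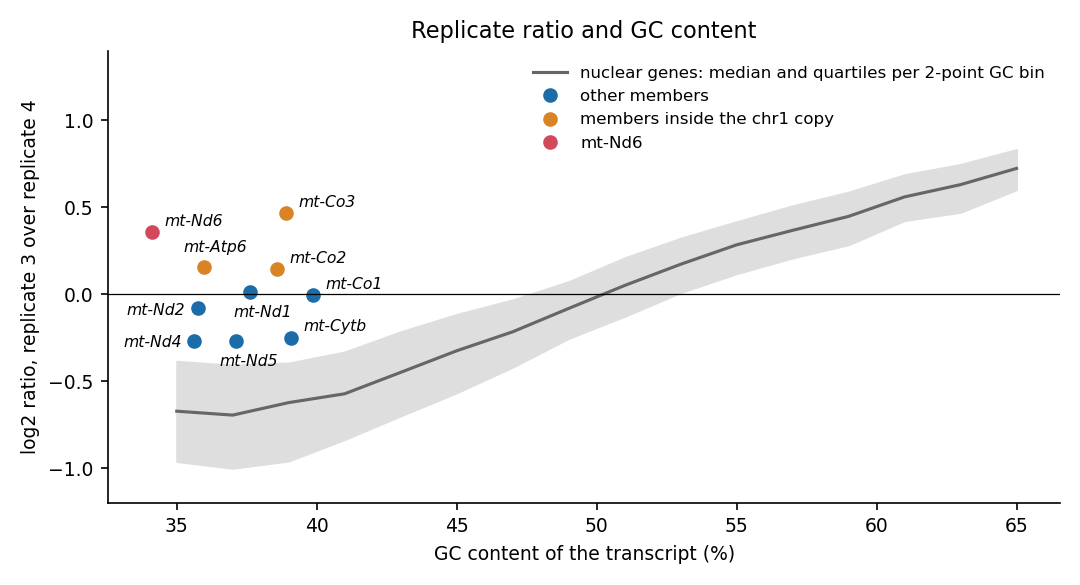
Log2 ratio of replicate 3 over replicate 4 against GC content of the transcript, for the 10 members (points) and for nuclear genes of at least 1 FPKM (median line and quartile band in bins of 2 percentage points with at least 20 genes). The members lie from -0.27 to 0.47, above the nuclear median of like GC content.

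The coefficient of variation over the 3 replicates ranged from 1.47% in mt-Co1 to 16.1% in mt-Co3, with a median of 9.01% over the members and 11.4% over the nuclear genes of at least 1 FPKM. These medians depended on the libraries, at 4.72% and 8.43% without replicate 3, 4.68% and 7.27% without replicate 4, and 9.92% and 15.05% without replicate 1, and the members' median was 22.3% after subtraction of the median of like GC content. Over nuclear genes of at least 10 FPKM, a floor that every member passed, the median over all 3 replicates was 9.97%. mt-Co1, mt-Nd1 (2.29%) and mt-Nd2 (3.08%) were the most even members, and mt-Co3 and mt-Nd6 (13.5%) the least even. The even members are the first protein-coding genes of the plus strand.

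The complexes to which the members belong also need nuclear-encoded subunits, and 76 such genes of complexes I to V were measured. All were at 1 FPKM or more, beside 10011 of the 22698 listed genes. The 76 genes summed to 8829 ± 673 FPKM (SD, n = 3), and the 10 members to 4.47 ± 0.501 times as much. The per-library ratios were 4.54, 3.94 and 4.93. The highest nuclear subunit, Atp5b, which encodes the catalytic beta subunit of ATP synthase, averaged 811 ± 91.9 FPKM (SD, n = 3), below mt-Nd4 and the 5 members above it. Complex II, succinate dehydrogenase, has only nuclear-encoded subunits, and its 4 genes had a median of 77.1 ± 2.94 FPKM (SD, n = 3).

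In complex I, the median of 36 nuclear subunits was 55.2 ± 4.53 FPKM (SD, n = 3), with Ndufa3 highest at 202 and Ndufab1 lowest at 2.2 FPKM. mt-Nd1 exceeded this median 145-fold, mt-Nd2 83.1-fold, mt-Nd5 66.6-fold and mt-Nd4 45.1-fold. mt-Nd6 alone among the complex I members was below it, 1.67-fold lower, and 24 of the 36 nuclear subunits were above mt-Nd6. Of the mitochondrially encoded subunits of complex I, mt-Nd6 and the non-members mt-Nd4l (27.3 FPKM) and mt-Nd3 (23.5 FPKM) lay within the range of the nuclear ones.

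In complex III, mt-Cytb exceeded the median of 9 nuclear subunits (116 ± 7.75 FPKM, SD, n = 3) 75.7-fold. In complex IV, the median of 11 nuclear subunits was 129 ± 3.12 FPKM (SD, n = 3), which mt-Co1 exceeded 88.3-fold. mt-Co2 was 1.33-fold and mt-Co3 2.22-fold below that median, with 7 and 9 of the 11 nuclear subunits above them. In complex V, mt-Atp6 was 1.86-fold above the median of 16 nuclear subunits (88.9 ± 5.49 FPKM, SD, n = 3), of which 5 were higher than mt-Atp6. The members wholly inside the chromosome 1 copy were thus listed among their nuclear partners.

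**Figure D5:**
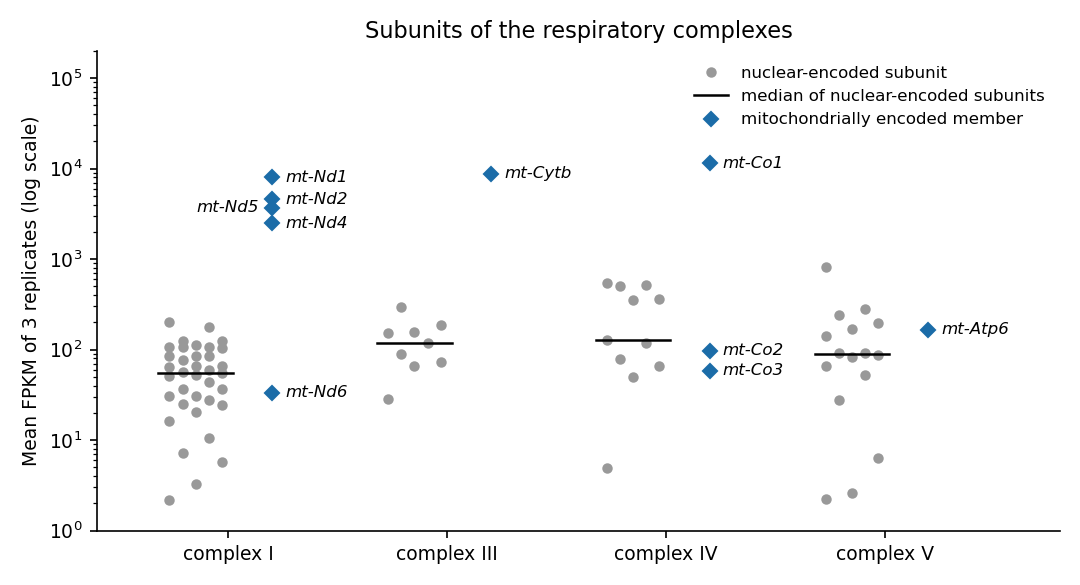
Mean FPKM of 3 replicates (log axis) for nuclear-encoded subunits (grey points, spread sideways for legibility, with their median as a line) and for the members (blue diamonds) of complexes I, III, IV and V. In all, 6 members lie above every nuclear subunit, while mt-Nd6, mt-Co2, mt-Co3 and mt-Atp6 lie among them.

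The nuclear genes that maintain mitochondrial DNA and make, process and degrade its RNA were at far lower levels than the 6 most abundant members. All 28 genes on these lists were above the value of 3 reads, with a median of 5.34 ± 0.603 FPKM (SD, n = 3). Of the 28, 26 were at 1 FPKM or more, beside 10011 of the 22698 listed genes. For transcription, Polrmt, the mitochondrial RNA polymerase, was at 10.53, 11.55 and 8.84 FPKM. Tfam, which packages mitochondrial DNA and acts at its promoters, was at 3.7, 3.27 and 3.64 FPKM. Tfb2m, which opens the promoter with the polymerase, was at 5.11, 4.7 and 6 FPKM, so the core of the transcription machinery was listed at levels near the median of the lists. Mterf, a gene of the transcription termination factor family, was the lowest of the 28 at 0.44, 0.24 and 0.74 FPKM. For replication, Polg, the catalytic subunit of the mitochondrial DNA polymerase, averaged 14.2 ± 2.07 FPKM and its accessory subunit Polg2 0.54 ± 0.0625 (SD, n = 3).

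Among the 11 genes of RNA processing, Hsd17b10, a subunit of mitochondrial RNase P that is also a dehydrogenase, was highest at 61.6 ± 4.10 FPKM and Fastkd1 lowest at 1.81 ± 0.21 (SD, n = 3). Elac2, which cuts the 3′ ends of transfer RNAs, averaged 11.8 ± 1.35 FPKM, and Grsf1, an RNA-binding protein of mitochondrial RNA granules, 16.9 ± 0.945 (SD, n = 3). Among the 7 genes of polyadenylation, stability and decay, Rexo2, an exonuclease for short RNAs, was highest at 164 ± 8.86 FPKM (SD, n = 3). Slirp, which binds mitochondrial messenger RNAs together with Lrpprc, was lowest at 3.64 ± 0.397 FPKM, and Lrpprc averaged 10.4 ± 0.879 (SD, n = 3). Mtpap, the mitochondrial poly(A) polymerase, was at 7.13, 5.63 and 8.25 FPKM. Every one of the 28 genes was thus below the 6 abundant members by an order of magnitude or more. Against the lower members, Rexo2 was near mt-Atp6 and above mt-Co2, mt-Co3 and mt-Nd6. Hsd17b10 was near mt-Co3 and above mt-Nd6.

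The genes outside the mitochondrial chromosome whose 3 values followed the summed members most closely were Cdk1, Gm10053, Prpf38a, Lsm3 and Lrrc8b. Likeness was measured as the root mean square distance between log2 values centred on their own mean, over 3 libraries, and these genes lay within 0.0038 of the members. The members deviated by log2 values of 0.03, -0.07 and 0.04 in replicates 1, 3 and 4. As 676 of 5335 genes with a mean of at least 10 FPKM (12.7%) lay within 0.05, the pattern is common, and likeness over 3 libraries of 1 condition distinguishes few genes.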

How the data were processed

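RNA-seq of untreated melan-a cells in 3 replicates was analysed, with levels, SDs and within-library ratios given as descriptions because there was 1 group. The submitters' processing notes name CASAVA 1.8.2. Per the paper's methods, stranded mRNA libraries were sequenced, the 10 5′-most bases were trimmed, reads were aligned to mm9 with STAR 2.3.0e, ribosomal RNA reads were removed, and genes of Ensembl release 67 were counted with htseq-count 0.5.3p3. The authors deposited FPKM values, scaled with TMM (trimmed mean of M values) and given to 2 decimals. The conversion to FPKM, the gene lengths, the strand setting, the treatment of reads that align to several places and the read length are not given in the sources used here. Labels name bioreplicate lines but no separate derivations, so the spread may be partly technical. Members and gene lists were chosen with earlier results of these data known. Beside the members, the genes named were every other mitochondrial gene, copies on chromosome 1, the highest and lowest of each list (any gene of a list of 11 or fewer) and the 5 genes most alike. Symbols, positions and sequences came from GENCODE vM1 (Ensembl release 65) on NCBIM37, which held 22324 of 22698 genes. Depth was estimated from whole reads in low values of genes up to 600 bases (148, 161 and 91 genes, mean distance from a whole number 0.051, 0.0516 and 0.0602 reads), and estimated reads follow from it. Calculations used numpy 2.4.6, numba 0.67.0, scipy 1.17.1, pandas 2.3.3 and matplotlib 3.10.9 under Python 3.11.15 and were tested on simulated data. The alternatives were each replicate left out, the median over replicates, rescaled totals, a pseudocount of 1, other filters on low values, shares of reads, unique windows of 90, 75 and 50 bases, the mean in place of the median, and subtraction of the median of like GC content. The values of 1 marker list are not reported here.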

Additional observations from a re-analysis of the deposited data

How the results depend on the processing

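With FPKM per unique length, mt-Nd5 over mt-Nd4 reversed to a log2 ratio of -0.79 with windows of 90 and of 75 bases and -0.73 with 50, by the shorter unique length of mt-Nd4, and mt-Co1 over mt-Nd6 rose from 8.43 to 9.02, 9.17 and 9.47. Rescaled to a total of 1000000, the members summed to 104290 over all genes and to 116547 relative to genes outside the mitochondrial chromosome, and the median of the DNA and RNA machinery rose to 15.9. As a share of reads (FPKM multiplied by annotated length) the members held 4.43%. Against the mean log2 level of the other members, mt-Nd6 was at -5.47 in place of -6.80. Subtraction of the median of like GC content raised the members' median coefficient of variation from 9.01% to 22.3%. With each replicate left out, the members' sum ranged from 38749 to 40158 FPKM, their share from 10.0% to 10.9%, mt-Co1 over mt-Nd6 from 8.32 to 8.50, mt-Nd6 against the median from -6.93 to -6.62, the median coefficient of variation from 4.68% to 9.92%, the median ratio to nuclear partners from 5.66 to 5.91 on the log2 scale, the machinery median from 5.02 to 5.62 FPKM and the 3 other mitochondrial genes from 118 to 131 FPKM. Of 121 values for single genes and pairs under the alternatives that keep all replicates, 79 moved by less than 1 SD, 39 moved further and 3 reversed. The 39 include all 10 values under each rescaled total and all 10 as shares of reads, which change the unit. The reversals are the pair mt-Nd5 over mt-Nd4 with windows of 90, 75 and 50 bases. No paired analysis was possible because there was 1 group. The lowest read estimate of a member was 874 reads. The sequence shared with chromosome 1 covers all of mt-Co2, mt-Co3 and mt-Atp6 and parts of mt-Nd4 and mt-Co1. Its part in their levels was not tested.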
